A study of Homo sapiens with 12 samples.

Results

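Parental MIAPaCa2 cells treated with oxamate were compared with parental cells treated with vehicle, 3 RNA-seq libraries in each group, which are 6 of the 12 libraries of the series. The members are the 14582 of 26475 gene symbols with enough counts to be tested over all 12 libraries. A gene could pass on counts of the resistant line alone, so that some members had few or no counts in parental cells. MIAPaCa2 is an established human pancreatic ductal adenocarcinoma (PDAC) cell line that relies strongly on glycolysis. Sodium oxamate is an analog of pyruvate that competes with it for lactate dehydrogenase A (LDHA), the enzyme that turns pyruvate into lactate and returns NAD to glycolysis. The parental cells had not been selected in the drug, whereas the other 6 libraries came from an oxamate-resistant line, a population of cells that survived continuous culture in oxamate, again with vehicle or oxamate. The labels name the parental groups only as untreated and treated with an LDHA inhibitor. All 12 libraries came from cells grown in the same serum-containing medium. The comparison asks which transcripts change when LDHA is inhibited in cells that have not adapted to it.

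A cell whose lactate production is blocked regenerates less cytosolic NAD and is known to change glycolytic genes and targets of the hypoxia-inducible factor. Growing cells spend much of their energy on other programs, among them the building of ribosomes in the nucleolus, the charging of tRNAs with amino acids, nucleotide synthesis and cell division. Growth factor signals, MTOR and MYC govern much of this machinery, and MYC binds the E-box CACGTG. The gene lists described here are other than those of glycolysis, hypoxia targets and collagens. The list of hypoxia targets outside glycolysis held 34 symbols and was not complete. MIR210HG and ZNF395, for example, are outside it, and other genes named below may respond to hypoxia too.

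The libraries held 59811522 to 114222169 expected counts, and 3 counts, taken as the floor of measurement, were worth 0.0283 to 0.0571 CPM in these 6 libraries. Such floors cover counting error only. CPM is the count of a gene relative to the TMM-scaled library size, and it compares 1 gene between libraries but not different genes with each other. Of 7 epithelial markers, 4 reached 1 CPM (KRT8, KRT18, KRT19 and CLDN4), as did VIM, ZEB1 and S100A4 of 4 mesenchymal markers. CDKN2A, CDKN2B and MTAP, which this line has lost, had no count in any parental library. The acinar markers summed to at most 0.0381 CPM, with PRSS1, CPA1, CPB1, AMY2A and PNLIP at 0, and of 6 endocrine markers only SYP reached 1 CPM, with INS, GCG, SST and PPY at 0. The 6 fibroblast markers, of which COL1A1, COL1A2 and COL3A1 reached 1 CPM, summed to 725 to 743 CPM after vehicle and 969 to 987 CPM after oxamate. The 5 leukocyte markers, of which CD68 and CD14 reached 1 CPM and CD3E was at 0, summed to 159 to 167 and 217 to 226 CPM. The 4 endothelial markers, with KDR at 0, summed to 0.619 to 0.740 and 0.876 to 1.24 CPM. The study describes cultures of MIAPaCa2 cells alone, without other cell types. The part of these markers in the results was not tested, and in bulk RNA fewer cells of a type and less RNA per cell cannot be told apart. Nothing in the labels says that the replicates were separate cultures, so that p-values measure only the spread between these libraries.

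LDHA, the enzyme that oxamate inhibits, was measured at 1075, 1059 and 1086 CPM after vehicle and at 1701, 1694 and 1546 CPM after oxamate. The groups did not overlap, and the rise was 0.62 on the log2 scale (SE 0.031, edgeR quasi-likelihood test with Benjamini-Hochberg adjustment, as for every adjusted p in this text, adjusted p = 3.25e-10). LDHC, the form of the enzyme known from testis, was at 0.698, 0.954 and 0.547 CPM after vehicle and 1.25, 1.26 and 0.898 CPM after oxamate. Oxamate replicate 3 lay within the range of the vehicle libraries, and the fitted difference was 0.59 (adjusted p = 0.0224). LDHB, which encodes the B subunit, had at most 1 count in any parental library and was not tested.

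At an adjusted p under 0.05, 8563 of the 14582 genes changed (58.7%), of which 4124 rose (28.3%) and 4439 fell (30.4%). Most of these changes were small. With a fold change over 1.5 in addition, 1368 genes remained (9.38%), 776 higher (5.32%) and 592 lower (4.06%) after oxamate. In 4314 genes (29.6%) every oxamate library lay above every vehicle library, and in 4658 (31.9%) every one lay below. With the library size as the only scaling the split became 2853 higher against 5922 lower at the adjusted p, and 614 against 827 past 1.5-fold, and the median over the genes tested shifted by -0.07 in log2. The counts under that scaling are therefore given beside the groups of genes whose prevailing direction turned.

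Oxamate replicate 3 stood apart from the other treated parental libraries by its nuclear RNA. The 15 long noncoding RNAs listed as retained in the nucleus summed to 673, 718 and 678 CPM after vehicle, and to 912, 899 and 1559 CPM after oxamate. With library size alone the last value was 1408 CPM. Much of these sums came from NEAT1 and MALAT1. NEAT1 was at 134, 155 and 128 CPM after vehicle and 262, 257 and 575 CPM after oxamate. MALAT1, a nuclear speckle RNA, was at 183, 198 and 199 CPM after vehicle and 289, 281 and 596 CPM after oxamate, a difference of 1.01 on the log2 scale (adjusted p = 0.00802) that was 0.56 without replicate 3 (adjusted p = 0.0578). KCNQ1OT1, which silences genes around KCNQ1 in cis, went from 2.07, 2.07 and 2.33 to 3.38, 3.03 and 7.33 CPM and its rise of 1.12 (adjusted p = 0.00155) was 0.58 without that library (adjusted p = 0.00513). For MALAT1 and KCNQ1OT1 replicates 1 and 2 lay above all vehicle libraries, and replicate 3 lay far above these. Not every noncoding RNA followed, since HCG11 and JPX fell by 0.39 and 0.35 (adjusted p = 1.59e-07 and 8.45e-04). TUG1, at 70.4, 71.4 and 70.8 against 73.1, 71.2 and 77.8 CPM, did not pass the test (adjusted p = 0.201). GAS5, at 194, 198 and 186 against 198, 197 and 202 CPM, did not either (adjusted p = 0.178). Where in the cell these RNAs lay was not measured. Without replicate 3 the 15 RNAs, of which 13 were tested, gave 4 that rose and 2 that fell, against 6 and 2 with it. Levels of this size were not particular to the library within the series. In the resistant line the 15 RNAs summed to 1000, 935 and 1523 CPM with vehicle and 1617, 1454 and 1788 CPM with oxamate. The cause of the high nuclear RNA in oxamate replicate 3 of the parental cells was not tested.

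This library moved the genes that rose more than those that fell. Of the 776 genes that rose over 1.5-fold, 460 had their highest oxamate value in replicate 3, against 156 and 160 in replicates 1 and 2. Their median difference from the vehicle mean was 0.66, 0.64 and 0.83 on the log2 scale in replicates 1, 2 and 3. Without replicate 3, 516 of them kept the call and 260 lost it, 77 of these only through a fold below 1.5, while 53 others gained it. Of the 592 genes that fell, 212, 188 and 192 had their highest value in replicates 1, 2 and 3, the medians were -0.74, -0.75 and -0.73, and 525 kept the call. Among all 14717 genes that could be tested without replicate 3, which include some not tested with it, 572 were higher (3.89%) and 622 lower (4.23%) past 1.5-fold, and at the adjusted p alone 3825 (26.0%) and 4199 (28.5%). Of 985 noncoding RNAs 147 rose (14.9%), 101 of these with their highest value in replicate 3, and 93 rose without it. Of the other genes at a mean level of 8 CPM or more, 166 of 9279 rose, 94 of these with their highest value in replicate 3, and 177 fell, and 133 and 168 kept the call. Of those under 8 CPM, 463 of 4318 rose, 265 of these with their highest value in replicate 3, and 382 fell, and 299 and 328 kept it.

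**Figure D1:**
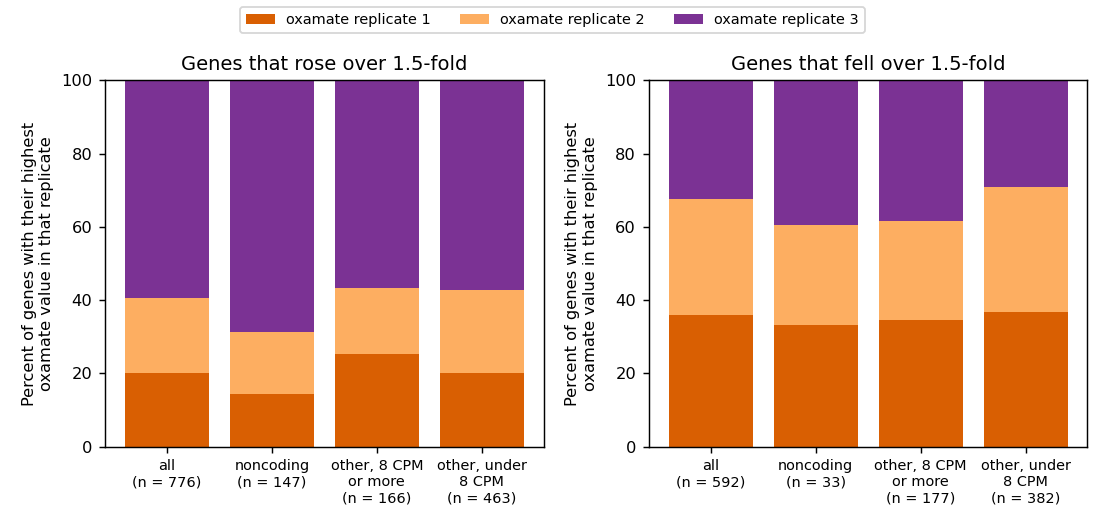
Share of the genes that rose (left) or fell (right) over 1.5-fold whose highest oxamate value, in CPM, was in replicate 1, 2 or 3, for all genes, noncoding RNAs and other genes above and below 8 CPM, with the number of genes under each bar. Replicate 3 held the highest value of 460 of the 776 genes that rose and of 192 of the 592 that fell.

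Among the genes called over 1.5-fold with replicate 3 that no longer passed the adjusted p without it, the 5 with the smallest p were LINC01573, VWA1, SUSD2, CARD14 and RNF207. RNF207, a RING finger protein, was at 1.90, 2.29 and 1.96 CPM after vehicle and 3.04, 2.32 and 5.78 CPM after oxamate, a rise of 0.89 (adjusted p = 0.00534) that was 0.39 without the library (adjusted p = 0.0585). CARD14, a scaffold of NF-kappaB signaling, went from 0.509, 0.446 and 0.466 to 0.662, 0.742 and 1.23 CPM. In both genes replicate 3 was the highest of the 6 libraries. Among those called over 1.5-fold without it that did not pass the adjusted p with it, or were not tested, the 5 with the smallest p were LIMD1-AS1, PTGES3L-AARSD1, IL12A, BRE-AS1 and HLA-DRB6. IL12A, a subunit of interleukin 12, was at 0.330, 0.304 and 0.289 CPM after vehicle and 0.107, 0.133 and 0.319 CPM after oxamate, so that replicate 3 alone reached the vehicle range. PTGES3L-AARSD1, a readthrough transcript of neighbouring genes, went from 0.905, 0.984 and 0.611 to 2.09, 2.15 and 0.551 CPM, with replicate 3 below the vehicle values and the other treated libraries far above them. HLA-DRB6, at or below the floor in 4 of the 6 libraries, shares reads with other HLA genes and is uncertain.

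The genes named next passed 1.5-fold with and without replicate 3, did not overlap between the groups and reached 5 CPM in the higher group. These were 436 genes, 164 higher and 272 lower after oxamate. The largest rises were those of FER1L4, a noncoding relative of the dysferlin genes, and RAB26, a small GTPase of secretory vesicles. FER1L4 was at 3.02, 4.04 and 3.31 CPM after vehicle and 9.10, 9.40 and 18.9 CPM after oxamate, a rise of 1.87 on the log2 scale (SE 0.25, adjusted p = 8.27e-06) and of 1.42 without replicate 3. RAB26 went from 1.65, 1.56 and 1.72 to 4.85, 4.40 and 5.90 CPM, a rise of 1.63 (SE 0.12, adjusted p = 1.44e-08). Replicate 3 lay well above the other treated libraries for FER1L4 and less so for RAB26. HSF4, a heat shock transcription factor known from the lens, went from 3.07, 3.60 and 3.43 to 6.33, 5.73 and 17.3 CPM, and its rise of 1.57 (adjusted p = 0.00141) was 0.85 without replicate 3. GIPR, the receptor of the gut hormone GIP, went from 3.74, 4.38 and 3.92 to 7.33, 6.95 and 18.7 CPM, with 1.48 against 0.83. NEAT1, the RNA scaffold of paraspeckles, went from 134, 155 and 128 to 262, 257 and 575 CPM, with 1.39 against 0.90. For HSF4, GIPR and NEAT1, replicate 3 was more than 2 times each of the other treated libraries. SH3D21 and LINC00482 rose by 1.48 and 1.55, and by 1.12 and 1.25 without it.

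The remaining rises of this group depended less on replicate 3. UPK1A, a tetraspanin of the urothelial surface, was at 6.17, 5.67 and 6.14 CPM after vehicle and 15.3, 15.9 and 15.1 CPM after oxamate, a rise of 1.36 (SE 0.055, adjusted p = 3.07e-11). CLIC3, an intracellular chloride channel protein, went from 2.57, 2.68 and 2.85 to 6.44, 6.38 and 7.01 CPM, a rise of 1.30 (adjusted p = 5.29e-09). APLN, the peptide ligand of the apelin receptor, went from 3.69, 3.55 and 3.63 to 8.55, 8.95 and 7.43 CPM, a rise of 1.19 (adjusted p = 1.28e-08). Treated replicates of these 3 genes lay close together and far from the vehicle libraries, and replicate 3 was the lowest of the treated libraries for UPK1A and APLN. UPK1A-AS1, on the opposite strand of UPK1A, rose by 0.94 (adjusted p = 3.12e-08), and as strand is not stated to have been used in the counting, reads of the pair cannot be told apart. MIR210HG, the host transcript of the hypoxia-induced miR-210, which the list of hypoxia targets did not hold, rose by 1.38 from 2.38, 2.42 and 2.20 to 5.79, 5.16 and 7.27 CPM, and LOC101927770 by 1.34 (adjusted p = 6.53e-08 and 2.60e-06).

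**Figure D2:**
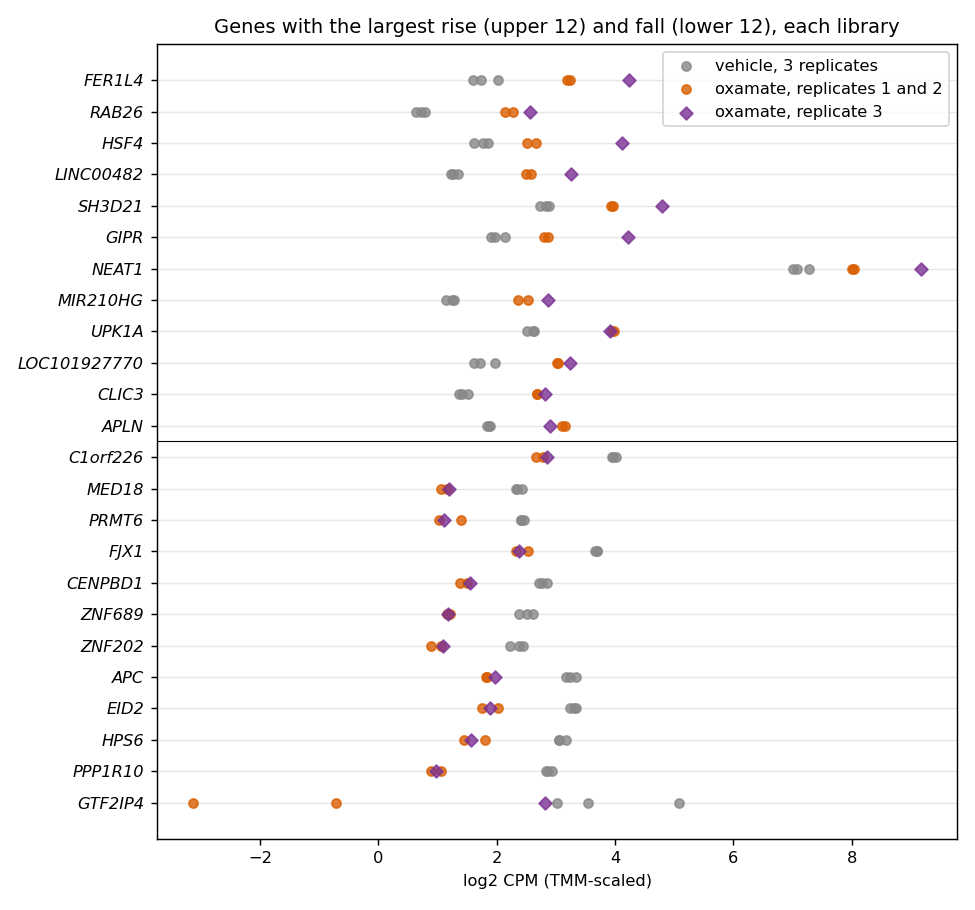
Level in log2 CPM of the 12 genes with the largest rise and the 12 with the largest fall, 1 point per library, with vehicle in gray, oxamate replicates 1 and 2 in orange and oxamate replicate 3 as purple diamonds. The groups do not overlap in any of the 24 genes, which the choice of genes required, and replicate 3 lies well to the right of the other oxamate libraries for FER1L4, HSF4, LINC00482, SH3D21, GIPR and NEAT1.

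The falls were more even between replicates. PPP1R10, a regulatory subunit of protein phosphatase 1 that acts on RNA polymerase II, was at 7.68, 7.13 and 7.27 CPM after vehicle and 1.86, 2.09 and 1.97 CPM after oxamate, a fall of 1.90 on the log2 scale (SE 0.078, adjusted p = 3.85e-11). APC, the scaffold of the complex that degrades beta-catenin, went from 9.02, 9.47 and 10.1 to 3.54, 3.56 and 3.93 CPM and fell by 1.36 (SE 0.058, adjusted p = 5.29e-11). HPS6, a subunit of a complex that makes lysosome-related organelles, went from 9.04, 8.29 and 8.31 to 3.49, 2.72 and 2.96 CPM and fell by 1.49 (adjusted p = 2.22e-10). In each of these genes the highest treated library was below 0.5 of the lowest vehicle library. EID2, an inhibitor of EP300, went from 9.88, 10.1 and 9.44 to 4.04, 3.37 and 3.71 CPM and fell by 1.41 (adjusted p = 1.73e-10). PRMT6, an arginine methyltransferase of histone H3, went from 5.49, 5.29 and 5.34 to 2.04, 2.63 and 2.16 CPM and fell by 1.25 (adjusted p = 1.20e-08). MED18, a subunit of the Mediator complex, went from 5.39, 5.08 and 5.03 to 2.24, 2.08 and 2.29 CPM and fell by 1.23 (adjusted p = 1.87e-09). ZNF202, ZNF689, CENPBD1, FJX1 and C1orf226 fell by 1.33, 1.32, 1.29, 1.27 and 1.21. Without replicate 3 the falls of these 11 genes lay between 1.21 and 1.90 on the log2 scale. In the RefSeq annotation of GRCh38.p14, PPP1R10 lies at chr6:30600413-30617243, APC at chr5:112707498-112846239, HPS6 at chr10:102065349-102068036 and RAB26 at chr16:2148144-2154165. GTF2IP4, a pseudogene copy of GTF2I whose reads cannot be assigned with certainty, was at 11.6, 33.8 and 8.07 CPM after vehicle and 0.608, 0.114 and 7.03 CPM after oxamate, with replicate 3 close to the vehicle range.

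Among genes below 5 CPM, 559 met the same conditions, 308 higher and 251 lower. LCMT2, an enzyme that makes the modified base wybutosine in phenylalanine tRNA, was at 0.801, 0.974 and 1.05 CPM after vehicle and 0.232, 0.190 and 0.159 CPM after oxamate, a fall of 2.26 (adjusted p = 4.53e-08). HS3ST3A1, a heparan sulfate sulfotransferase, was at 0.141, 0.162 and 0.177 CPM after vehicle and 0.0358, 0.0190 and 0.0435 CPM after oxamate, where all 3 libraries lay at or under the floor. GDNF, a neurotrophic factor, went from 0.113, 0.0812 and 0.145 to 0.0536, 0 and 0.0145 CPM, and RNF180, a ubiquitin ligase, was at 0.0377, 0.0507 and 0.0482 CPM after vehicle and at 0 in all oxamate libraries. The readthrough transcript ZNF816-ZNF321P was at 0.0189, 0 and 0 CPM after vehicle and 0.662, 0.952 and 0.246 CPM after oxamate, and LOC100128076 at 0.00943, 0.0609 and 0 against 0.161, 0.0952 and 0.319 CPM. LINC01444 and CLDN2 had no count after vehicle and stayed at or under the floor after oxamate. No fold change is given for these genes other than LCMT2, since in at least 1 group most libraries lay at or under the floor.

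Most genes that build ribosomes fell. Of 70 genes of ribosome biogenesis and RNA polymerase I, 58 fell (82.9%, against 30.4% of all genes tested) and 2 rose, with a median of -0.32 on the log2 scale, and 6 fell over 1.5-fold (all genes 4.06%). Without oxamate replicate 3 the counts were 57 and 2. WDR43, a part of the small subunit processome, was at 84.5, 84.7 and 84.9 CPM after vehicle and 54.2, 53.3 and 53.6 CPM after oxamate and fell by 0.66 (SE 0.025, adjusted p = 1.78e-11). LTV1, which helps to mature the small subunit, went from 22.9, 22.7 and 23.5 to 10.7, 11.6 and 11.0 CPM and fell by 1.06 (adjusted p = 5.15e-11). EBNA1BP2, a nucleolar factor of the large subunit, went from 93.6, 89.7 and 88.5 to 51.9, 53.7 and 50.6 CPM and fell by 0.80 (adjusted p = 6.65e-11). The spread between replicates was small beside these differences, and replicate 3 did not stand out. RRS1 and UTP15, of the large and small subunit pathways, fell by 0.87 and 0.86, and NOP2, which methylates 28S rRNA, by 0.71. The genes that rose were FBL, the methyltransferase of box C/D snoRNPs, by 0.18, and POLR1D, a subunit shared by RNA polymerases I and III, by 0.089 (adjusted p = 5.63e-04 and 0.00747), the latter not past the test with library size alone (adjusted p = 0.600). With library size alone 65 of the 70 fell and 1 rose.

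The promoters of this group often held CACGTG, the E-box known as a site of MYC and related factors. RefSeq promoters (GRCh38.p14, 250 bases before to 50 after the start of the gene) were matched by symbol for 59 of the 70 genes, and 20 of them (33.9%) held CACGTG on either strand, the motif being its own reverse complement. Of all 27305 promoters, 2030 (7.43%) held it, as did 3 of 62 promoters of cytosolic ribosomal proteins (4.84%) and 23 of 394 of ZNF genes (5.84%). The 27305 include promoters of genes not tested here, whereas the members of the lists were all tested, so that the sets are not matched. The ETS motif CCGGAAGT, searched on both strands, was found in 22.0% of the ribosome biogenesis promoters, 14.5% of those of ribosomal proteins, 18.3% of those of ZNF genes and 4.44% of all. These matches are a description of the letters in the window. To show the motif in its context, windows of 30 bases are given for 8 of the genes that fell, 5′ to 3′ on the strand of the gene, with CACGTG in capitals:
LTV1: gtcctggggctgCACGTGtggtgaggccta
EBNA1BP2: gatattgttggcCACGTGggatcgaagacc
NOP2: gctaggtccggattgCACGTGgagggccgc
WDR43: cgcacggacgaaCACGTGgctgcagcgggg
MRTO4: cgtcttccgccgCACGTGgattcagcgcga
PNO1: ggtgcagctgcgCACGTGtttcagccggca
BYSL: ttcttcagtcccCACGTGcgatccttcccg
UTP20: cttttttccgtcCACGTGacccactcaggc

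These windows lie at chr6:143843354-143843383 (plus strand, LTV1), chr1:43172790-43172819 (minus, EBNA1BP2), chr12:6568242-6568271 (minus, NOP2), chr2:28894658-28894687 (plus, WDR43), chr1:19251807-19251836 (plus, MRTO4), chr2:68157885-68157914 (plus, PNO1), chr6:41921515-41921544 (plus, BYSL) and chr12:101280083-101280112 (plus, UTP20). In EBNA1BP2 the motif begins 237 bases and in UTP20 10 bases before the start, and in the other genes it begins 4 to 36 bases after it. The falls of MRTO4, PNO1, BYSL and UTP20 were 0.55, 0.52, 0.50 and 0.46 on the log2 scale. Genes without the motif fell as well. Of the 20 genes with it 16 fell and 1 rose, with a median of -0.38, and of the 39 without it 32 fell and 1 rose, with a median of -0.28.

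The proteins of the finished ribosome went the other way. Of 77 cytosolic ribosomal protein genes, 73 rose (94.8%, against 28.3% of all genes tested), none fell and none passed 1.5-fold. The median was 0.17, and without replicate 3 the number that rose was 75. With library size alone 48 rose and 1 fell, with a median of 0.09. RPL36A was at 1023, 986 and 960.3 CPM after vehicle and 1204, 1172 and 1156 CPM after oxamate, a rise of 0.25 (SE 0.031, adjusted p = 4.37e-06). RPL28 went from 1497, 1419 and 1374 to 1692, 1649 and 1653 CPM, a rise of 0.22 (adjusted p = 1.09e-05). The groups did not overlap in these genes, although the differences were of about 1.2-fold at most. Many ribosomal proteins have processed copies in the genome, whose reads may be divided between them. Of 80 mitochondrial ribosomal protein genes, 34 fell (42.5%, against 30.4% of all genes tested) and 9 rose (11.2%, against 28.3%), with a median of -0.07. MRPS17, of the small subunit, fell by 0.43 from 17.7, 16.9 and 15.8 to 12.7, 12.8 and 11.9 CPM, and MRPL17, of the large one, rose by 0.22 (adjusted p = 1.71e-06 and 1.51e-05).

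**Figure D3:**
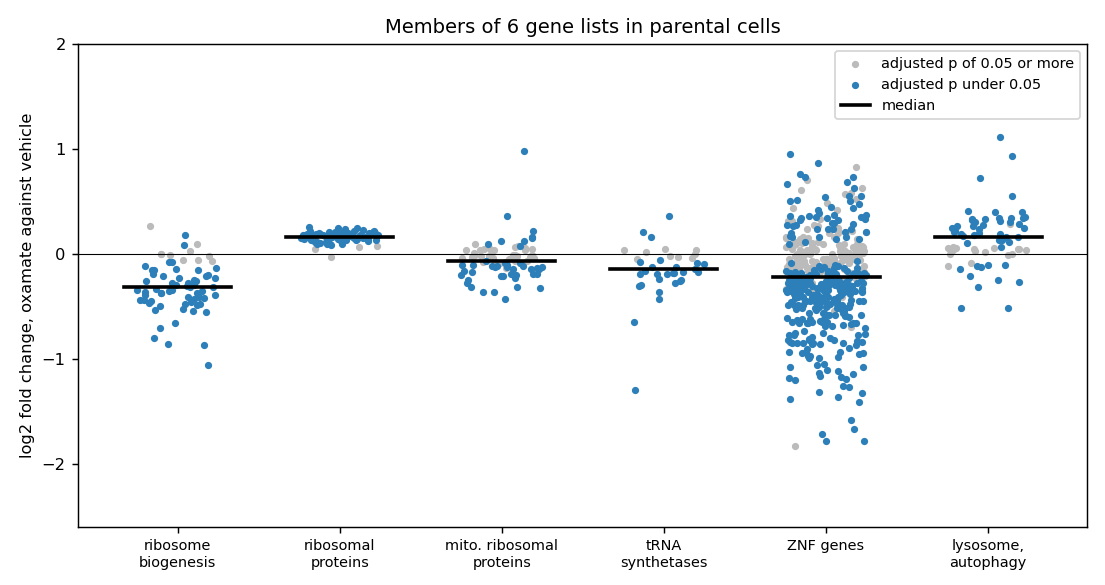
Log2 fold change of each tested member of 6 gene lists, oxamate against vehicle, with blue points at an adjusted p under 0.05, gray points at or above it and a black bar at the median. The axis runs from -2.6 to 2.0 and leaves out 1 point, that of ZNF816-ZNF321P. The bar of ribosome biogenesis lies at -0.32 and that of the ribosomal proteins at 0.17.

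Genes that supply translation with amino acids mostly fell, whereas of all genes tested 30.4% fell and 28.3% rose. Of 37 aminoacyl-tRNA synthetases, 25 fell (67.6%) and 3 rose (8.11%), with a median of -0.14. MARS, which charges methionine tRNA, was at 106, 103 and 105 CPM after vehicle and 67.3, 65.8 and 66.0 CPM after oxamate and fell by 0.65 (adjusted p = 1.73e-11). AARS, for alanine, went from 549, 540.4 and 534 to 401, 403 and 398 CPM and fell by 0.43 (adjusted p = 3.56e-10). PARS2, for proline in mitochondria, went from 4.71, 4.64 and 4.31 to 1.75, 1.98 and 1.85 CPM and fell by 1.30 (adjusted p = 1.40e-09). DARS, for aspartate, went the other way and rose by 0.36 from 192, 191 and 197 to 255, 256 and 237 CPM (adjusted p = 6.22e-08). VARS2 and IARS2, which act in mitochondria, rose by 0.21 and 0.16. Of 39 genes of the integrated stress response and amino acid synthesis, 24 fell (61.5%) and 11 rose (28.2%), and 3 fell over 1.5-fold. ASNS, which makes asparagine, fell by 0.58, SLC7A5, the leucine transporter, by 0.46, PSAT1, of serine synthesis, by 0.48, and SLC7A11, the cystine transporter, by 0.75 (adjusted p = 1.76e-10, 9.19e-10, 2.10e-09 and 2.77e-05). GPT2, a mitochondrial alanine aminotransferase, rose by 0.27 (adjusted p = 3.20e-07).

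Of 35 genes of nucleotide synthesis, 20 fell (57.1%, against 30.4% of all genes tested) and 12 rose (34.3%, against 28.3%). CTPS1, which makes CTP, was at 37.0, 37.9 and 37.2 CPM after vehicle and 23.2, 24.2 and 22.4 CPM after oxamate and fell by 0.69 (adjusted p = 3.09e-10). UMPS, which makes UMP, went from 24.1, 25.6 and 24.0 to 14.8, 14.8 and 14.9 CPM and fell by 0.73 (adjusted p = 3.63e-10). These pyrimidine genes were the only ones of the list past 1.5-fold. RRM2 and TK1, which supply deoxynucleotides, rose by 0.31 and 0.26 (adjusted p = 2.79e-08 and 2.69e-06). Of 46 proteasome subunits, 25 fell (54.3%) and 5 rose (10.9%), and PSMB8, PSMB9 and PSMB10, the catalytic subunits of the immunoproteasome, were among those that rose, by 0.14, 0.32 and 0.23 (adjusted p = 0.0384, 4.53e-05 and 0.00178). Without replicate 3 the rise of PSMB8 did not pass the test (adjusted p = 0.0668), and with library size alone neither did it (adjusted p = 0.275).

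**Figure D4:**
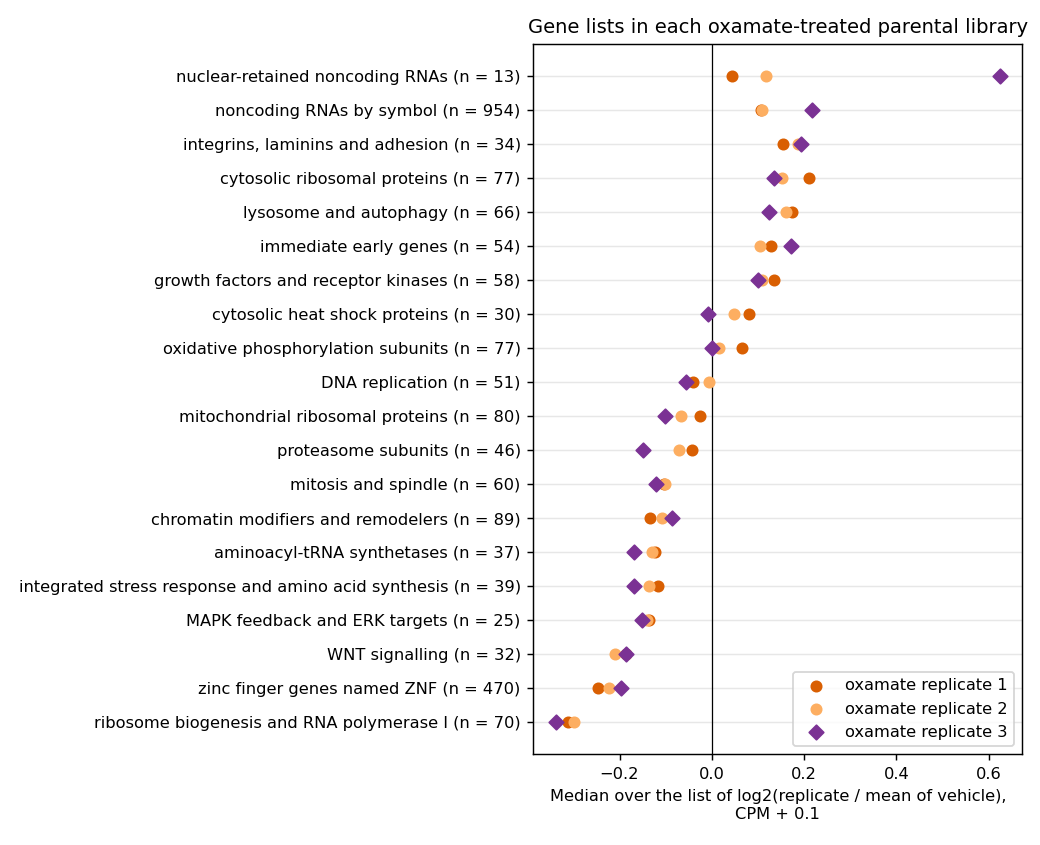
Median over the tested members of 20 gene lists of the log2 ratio of each oxamate library to the vehicle mean, with 0.1 CPM added, 1 mark per oxamate library. Ribosome biogenesis lies at -0.31, -0.30 and -0.34 in replicates 1, 2 and 3, and the nuclear-retained noncoding RNAs lie at 0.04, 0.12 and 0.63.

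Zinc finger genes named ZNF, many of which encode repressors of transcription, fell in the majority. Of 566 such symbols 470 were tested. Of these 251 fell (53.4%, against 30.4% of all genes tested) and 52 rose (11.1%, against 28.3%), with a median of -0.22. Past 1.5-fold 85 fell (18.1%, against 4.06% of all genes tested) and 9 rose (1.91%, against 5.32%), and 76 of the 85 kept the call without replicate 3. Of the 2536 coding genes with the lowest transcript GC content, 4.69% fell past 1.5-fold and 2.17% rose. Of the 2536 with the highest, 2.44% fell and 9.42% rose. Of genes other than noncoding RNAs under 8 CPM, 8.85% fell. The 262 ZNF genes with 3 to 5 exons had medians of 42.4% GC and 3.97 CPM. The part of GC content and level in the falls was not tested. ZNF629 was at 31.4, 30.6 and 31.5 CPM after vehicle and 17.8, 17.2 and 18.0 CPM after oxamate and fell by 0.82 (adjusted p = 2.26e-11). ZNF398 went from 9.84, 9.07 and 10.2 to 4.11, 4.32 and 4.39 CPM and fell by 1.18 (adjusted p = 1.80e-10). ZNF830 went from 11.5, 11.2 and 11.0 to 4.85, 5.20 and 5.58 CPM and fell by 1.11 (adjusted p = 2.53e-10). The groups were clearly separated in each. ZNF395, known as a target of hypoxia signaling, rose by 0.54 from 102, 101 and 104 to 149, 151 and 146 CPM (adjusted p = 1.29e-10). Related ZNF genes share sequence, so that part of their reads may be divided between them.

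Outside the ZNF genes, the share of coding genes that fell was smaller the more exons a gene had. The number of exons was known for 12679 of the 14582 genes tested (86.9%). Of 298 genes with 1 exon, 57 fell over 1.5-fold (19.1%) and 11 rose (3.69%). The share that fell was 14.1% of genes with 2 exons, 4.47% with 3 to 5, 2.38% with 6 to 10 and 1.97% with 11 or more, whereas the share that rose was 5.89%, 4.51%, 3.92% and 4.57%. Without replicate 3 the shares that fell were 18.1%, 13.0%, 4.60%, 2.65% and 2.38% in the same order. Genes with 1 exon were lower in expression, with a median of 4.54 CPM against 30.9 CPM for genes with 11 or more. At a mean of at least 8 CPM, 20 of 123 genes with 1 exon fell (16.3%), against 5.30%, 2.04%, 1.46% and 1.14%. At that level the median log2 fold changes were -0.22 for 1 exon and -0.08 for 2, against 0.02, -0.003 and -0.03 for the rest. Over all levels they were modest too, at -0.17 and -0.10, against 0.02, 0.01 and -0.01. The share of genes with 1 exon that fell was 20.5% where the GC content of the transcript was below the median and 18.3% where it was at or above it. The analyses at 8 CPM, by GC content and without replicate 3 were chosen after the data had been seen, and why genes with few exons fell was not tested.

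**Figure D5:**
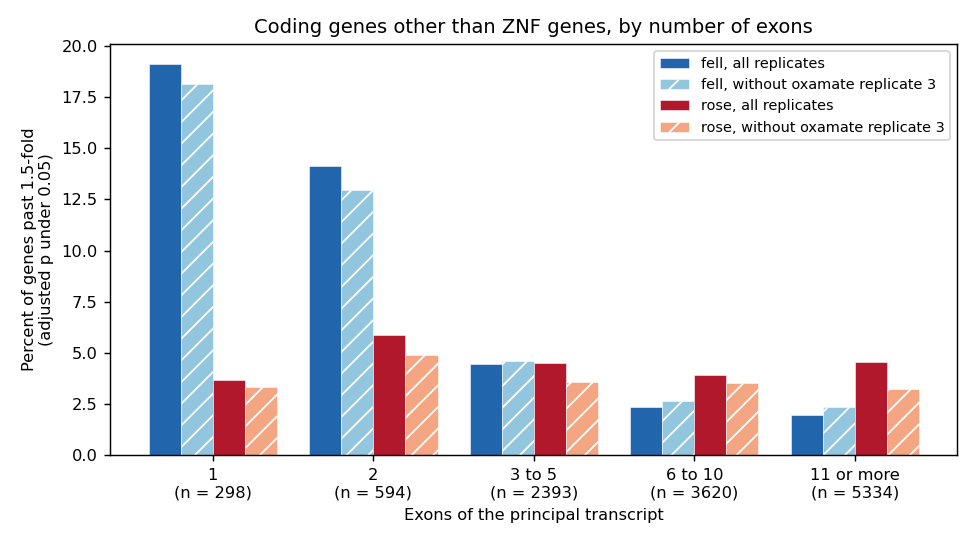
Percent of coding genes other than ZNF genes that fell (blue) or rose (red) over 1.5-fold, by the number of exons of the principal transcript, with all replicates (solid) and without oxamate replicate 3 (hatched). The share that fell drops from 19.1% of 298 genes with 1 exon to 1.97% of 5334 genes with 11 or more, while the share that rose stays between 3.69% and 5.89%.

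Several of these single-exon genes encode regulators. CCDC71L was at 55.9, 56.5 and 54.3 CPM after vehicle and 28.3, 27.4 and 27.3 CPM after oxamate and fell by 1.01 (adjusted p = 1.72e-11). IRF2BPL, a nuclear regulator of transcription, went from 141, 142 and 137 to 86.5, 83.7 and 85.9 CPM and fell by 0.72 (adjusted p = 2.63e-11). FZD8, a receptor of WNT proteins, went from 37.8, 37.7 and 36.0 to 21.2, 19.8 and 21.0 CPM and fell by 0.85 (adjusted p = 4.20e-11). FEM1A, which recognizes substrates for a ubiquitin ligase, fell by 0.94, DDX28, an RNA helicase of mitochondrial ribosome assembly, fell by 1.15, and MAGEF1 fell by 0.70. Single-exon genes did not all fall, and those named here were chosen after their values had been seen. RHOB, a small GTPase, was at 305, 292 and 287 CPM after vehicle and 493, 480.0 and 489.7 CPM after oxamate and rose by 0.73 (adjusted p = 1.72e-11). CXCR4, the receptor of the chemokine CXCL12, went from 9.39, 8.69 and 8.56 to 15.1, 15.7 and 16.1 CPM and rose by 0.81 (adjusted p = 4.01e-09). SFN, a 14-3-3 protein of epithelia, rose by 0.71 (adjusted p = 2.89e-08). Of the 11 annotated genes with the largest fall named above, 5 have a single exon (HPS6, EID2, CENPBD1, FJX1 and PRMT6), and none of the 7 annotated genes with the largest rise has. Among all annotated genes that met the same conditions, 33 of 253 that fell and 6 of 143 that rose have a single exon.

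Of all genes tested 30.4% fell and 28.3% rose, and the share that fell lay nearer to this in the lists of transcription and DNA repair than in that of chromatin genes. Of 49 genes of RNA polymerase II pausing and elongation, 19 fell (38.8%) and 10 rose (20.4%). Besides PPP1R10, HEXIM1, the inhibitor of the elongation kinase P-TEFb, was at 125, 123 and 116 CPM after vehicle and 81.4, 78.2 and 84.8 CPM after oxamate and fell by 0.57 (adjusted p = 1.17e-09). CDK13 and MED1, an elongation kinase and a Mediator subunit, fell by 0.58 and 0.50, and ELL3, an elongation factor, rose by 0.70 (adjusted p = 5.26e-09, 1.53e-09 and 6.62e-09). Of 89 chromatin modifiers and remodelers, 46 fell (51.7%) and 24 rose, and 6 fell over 1.5-fold. EP300, a histone acetyltransferase, was at 43.9, 46.4 and 47.1 CPM after vehicle and 25.1, 26.9 and 28.8 CPM after oxamate and fell by 0.76 (adjusted p = 1.03e-08). KMT2E, of the MLL family, went from 53.2, 55.4 and 57.6 to 30.7, 31.2 and 34.8 CPM and fell by 0.78 (adjusted p = 5.70e-10). ARID1A, a subunit of the SWI/SNF remodeler, went from 28.9, 29.9 and 29.3 to 15.4, 17.4 and 18.5 CPM and fell by 0.77 (adjusted p = 1.03e-08). In all 3 genes the treated libraries lay far below the vehicle libraries. HDAC5 and EHMT2, a histone deacetylase and an H3K9 methyltransferase, rose by 0.41 and 0.29 (adjusted p = 7.98e-09 and 4.27e-08). Of 63 DNA repair genes, 23 fell (36.5%) and 7 rose (11.1%). ERCC4, a nuclease of nucleotide excision repair, fell by 0.88 from 6.19, 6.38 and 6.11 to 3.38, 3.43 and 3.33 CPM, and XRCC1, of single-strand break repair, rose by 0.29 (adjusted p = 4.00e-09 and 7.93e-07).

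Cell cycle genes fell in mitosis and divided in G1. Of 60 genes of mitosis and the spindle, 32 fell (53.3%, against 30.4% of all genes tested) and 6 rose (10.0%, against 28.3%), with a median of -0.10 and 1 fall over 1.5-fold. That gene was CCNF, the cyclin of a ubiquitin ligase, at 19.6, 18.5 and 18.8 CPM after vehicle and 12.1, 10.8 and 12.1 CPM after oxamate (adjusted p = 6.33e-09). AURKA, the kinase of spindle poles, went from 98.9, 100.3 and 104 to 71.7, 75.3 and 69.9 CPM and fell by 0.48 (adjusted p = 3.35e-09). SMC2, of condensin, rose by 0.34 (adjusted p = 2.78e-07). Among 37 G1 regulators 14 rose (37.8%) and 12 fell (32.4%), and with library size alone 10 rose and 16 fell. CDC25A, the phosphatase that activates cyclin-dependent kinases, was at 7.56, 7.93 and 7.96 CPM after vehicle and 4.09, 3.71 and 4.01 CPM after oxamate and fell by 0.98 (adjusted p = 2.39e-09). CCND1, cyclin D1, went from 99.4, 103 and 103 to 67.2, 68.5 and 71.0 CPM and fell by 0.56 (adjusted p = 2.90e-10). E2F3 and E2F8, of the E2F family, fell by 0.69 and 0.91. The genes that rose include brakes on the cycle. CCNG2, an atypical cyclin, rose by 0.50, and the inhibitors CDKN1C and CDKN2D by 0.46 and 0.46 (adjusted p = 6.44e-10, 4.45e-08 and 4.30e-08). Of 29 p53 targets 13 rose and 9 fell, and with library size alone 9 rose and 9 fell. TIGAR, a phosphatase that lowers fructose 2,6-bisphosphate and belongs to that list, was at 11.1, 11.0 and 11.9 CPM after vehicle and 4.74, 5.25 and 4.90 CPM after oxamate and fell by 1.19 (adjusted p = 6.70e-10).

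Lists of signaling genes differed in how far they departed from all genes tested, of which 30.4% fell and 28.3% rose. Of 25 MAPK feedback genes and ERK targets, 14 fell (56.0%) and 7 rose (28.0%). SPRY2, a feedback inhibitor of RAS signaling, was at 142, 142 and 146 CPM after vehicle and 100.5, 99.2 and 100.2 CPM after oxamate and fell by 0.52 (adjusted p = 1.06e-10). DUSP6, the ERK phosphatase, went from 1.67, 1.33 and 1.85 to 0.679, 0.819 and 0.753 CPM and fell by 1.08 (adjusted p = 5.39e-06). Of 32 WNT signaling genes, 19 fell (59.4%) and 5 rose (15.6%), among the former APC, FZD8 and DKK1, the secreted inhibitor of LRP6, which fell by 0.49 (adjusted p = 1.03e-08). TCF7, a transcription factor of the pathway, rose by 0.33 (adjusted p = 6.28e-08). Of 53 genes of AMPK, MTOR and nutrient signaling, 21 fell (39.6%) and 16 rose (30.2%), shares near those of all genes. IRS1, the adaptor of insulin receptors, was at 106, 105 and 104 CPM after vehicle and 67.7, 68.0 and 68.6 CPM after oxamate and fell by 0.63 (adjusted p = 3.18e-11). The regulatory subunits of phosphoinositide 3-kinase PIK3R3 and PIK3R1 fell by 1.00 and 0.82. RRAGD, a RAG GTPase that recruits MTORC1 to lysosomes, rose by 0.43 from 111, 114 and 114 to 154, 155 and 148 CPM (adjusted p = 4.05e-09).

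Lysosome and autophagy genes rose in the majority. Of 66 tested, 38 rose (57.6%, against 28.3% of all genes tested) and 11 fell (16.7%, against 30.4%), with a median of 0.16. With library size alone 31 rose and 14 fell. IDS, a lysosomal sulfatase, was at 99.4, 100.4 and 104 CPM after vehicle and 144, 153 and 148 CPM after oxamate and rose by 0.55 (adjusted p = 6.25e-10). ATG9A, the lipid scramblase of forming autophagosomes, went from 124, 123 and 122 to 163, 167 and 159.8 CPM and rose by 0.41 (adjusted p = 1.06e-09). MAP1LC3B, the protein that coats autophagosomes, went from 247, 253 and 261 to 338, 337 and 325 CPM and rose by 0.40 (adjusted p = 6.31e-09). All 3 genes were separated between the groups, with changes below 1.5-fold. WIPI1, an early autophagy protein, fell by 0.51 (adjusted p = 3.97e-08). TFEB, the factor that controls lysosomal genes, was at 6.04, 5.63 and 5.82 CPM after vehicle and 5.44, 5.33 and 5.40 CPM after oxamate (adjusted p = 0.119, and 0.0108 with library size alone).

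Stress genes divided by family. Of 30 cytosolic heat shock proteins and cochaperones, 14 rose (46.7%, against 28.3% of all genes tested) and 12 fell (40.0%, against 30.4%). With library size alone 11 rose and 15 fell. HSPA1A and HSPA1B are near-identical copies of HSP70, so that their shares are uncertain. HSPA1A went from 404, 382 and 374 to 635, 634 and 674 CPM and rose by 0.74 (adjusted p = 5.15e-11). HSPA1B went from 111, 113 and 107 to 189, 181 and 189.7 CPM and rose by 0.76 (adjusted p = 1.72e-11). DNAJB1, their cochaperone, and HSPB1, HSP27, rose by 0.55 and 0.40, while HSPA4 and CHORDC1 fell by 0.33 and 0.46 (adjusted p = 5.15e-11, 2.18e-09, 1.67e-08 and 1.82e-09). Among 37 genes of the NRF2 and glutathione list, 16 rose (43.2%) and 9 fell (24.3%), and with library size alone 12 rose and 14 fell. The metallothioneins, which bind zinc and copper, led the genes that rose. MT1E was at 467, 440.5 and 397 CPM after vehicle and 993, 966 and 1009 CPM after oxamate and rose by 1.18 (adjusted p = 1.73e-11). MT1X went from 157, 148 and 127 to 273, 265 and 281 CPM and MT2A from 1421, 1345 and 1174 to 1819, 1770.1 and 1859 CPM, rises of 0.92 and 0.47 (adjusted p = 1.17e-09 and 9.23e-07). Metallothioneins resemble each other closely, and their shares are uncertain. EPHX1, an epoxide hydrolase, and HMOX1, heme oxygenase, rose by 0.41 and 0.38 (adjusted p = 6.22e-08 and 7.07e-08). GCLC, of glutathione synthesis, fell by 0.40, TXNRD1, thioredoxin reductase, fell by 0.36, and NFE2L2, which encodes NRF2 itself, fell by 0.23 (adjusted p = 1.65e-07, 1.57e-08 and 8.96e-07).

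Genes of the cell surface rose more than they fell, whereas of all genes tested 28.3% rose and 30.4% fell. Of 34 integrins, laminins and adhesion genes, 15 rose (44.1%) and 2 fell (5.88%). THBS3, a thrombospondin, had a mean of 34.6 ± 0.301 CPM after vehicle and 54.7 ± 2.78 CPM after oxamate (SD, n = 3) and rose by 0.66 (adjusted p = 4.58e-09). ITGA3, the integrin that binds laminin, went from 825, 784 and 781 to 1017, 1015 and 1016 CPM and rose by 0.35, and L1CAM rose by 0.56 (adjusted p = 7.47e-09 and 8.35e-09). Of 58 growth factors and receptor kinases, 27 rose (46.6%) and 11 fell (19.0%). DDR1, a receptor kinase that binds collagen, was at 95.5, 93.4 and 92.1 CPM after vehicle and 146, 146 and 145 CPM after oxamate and rose by 0.64 (adjusted p = 1.32e-10). EFNA3, an ephrin, went from 38.3, 37.4 and 36.3 to 64.0, 60.8 and 60.3 CPM and rose by 0.72, and AREG, a ligand of the EGF receptor, rose by 0.53 (adjusted p = 1.49e-10 and 8.20e-11). Of 34 semaphorins, plexins and other axon guidance genes, 13 rose (38.2%) and 5 fell (14.7%), and 5 rose over 1.5-fold. SEMA3B, a secreted semaphorin, was at 35.6, 34.4 and 33.4 CPM after vehicle and 61.9, 58.5 and 66.0 CPM after oxamate and rose by 0.85 (adjusted p = 3.56e-10). PLXNB3 and PLXNB2, receptors of semaphorins, rose by 0.90 and 0.47. The fibroblast markers given above, of which 3 collagens reached 1 CPM, were also higher in all oxamate libraries. As the study describes cultures of MIAPaCa2 cells alone, they do not stand for an added cell type. Their part in the adhesion genes was not tested.

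Of 44 interferon-stimulated and antigen presentation genes, 22 rose and 13 fell (29.5%). Those that rose include HLA-B at 182, 174 and 168 CPM after vehicle and 244, 238 and 247 CPM after oxamate, a rise of 0.48, and ISG20, an exonuclease, at 17.6, 15.9 and 15.9 against 27.6, 27.0 and 25.8 CPM, a rise of 0.70 (adjusted p = 2.65e-09 and 1.24e-07). HLA genes share reads, and their shares are uncertain. IFIT2, IFIT3 and IFIT5, which bind viral RNA, fell by 0.62, 0.50 and 0.62, whereas IFIT1 was at 68.3, 70.4 and 69.5 CPM after vehicle and 71.3, 73.7 and 70.7 CPM after oxamate (adjusted p = 0.121). Of 54 immediate early genes, 28 rose (51.9%) and 15 fell (27.8%), against 23 and 18 with library size alone. PIM1, a kinase, ZFP36, which degrades AU-rich mRNAs, and KLF2, a zinc finger factor, rose by 0.43, 0.56 and 0.49, together with RHOB. EGR1, the early growth response factor, was at 313, 309 and 300.4 CPM after vehicle and 232, 231 and 234 CPM after oxamate and fell by 0.41 (adjusted p = 2.68e-08). JUN, of the AP-1 factor, went from 814, 775 and 752 to 598, 579 and 629 CPM and fell by 0.37 (adjusted p = 7.59e-08). CTGF, a secreted target of YAP, went from 0.735, 0.832 and 0.611 to 0.250, 0.286 and 0.275 CPM and fell by 1.44 (adjusted p = 4.26e-05).

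Whether the changes of the 24 genes with the largest rise and fall differed from the response of the oxamate-resistant line was tested as the difference between both responses in the same model. It passed an adjusted p of 0.05 for 19 of the 24 (44.2% of all genes tested), and in 9 of these the fitted change of the resistant line had the opposite sign. Of these 9 the resistant change itself passed the test for PPP1R10, HPS6, EID2 and CENPBD1 and did not for APC, ZNF202, ZNF689, PRMT6 and MED18. The genes had been chosen for a large parental response, so that the test is not independent of their choice. PPP1R10, down by 1.90 in parental cells, was 24.1 and 34.4 CPM on average in resistant cells without and with oxamate, a difference between responses of 2.42 (SE 0.093, adjusted p = 7.49e-11). RAB26, up by 1.63 in parental cells, was 2.29 and 2.97 CPM, a difference of -1.26 (SE 0.17, adjusted p = 3.02e-05). For FER1L4, HSF4, GIPR, NEAT1 and GTF2IP4 the difference did not pass the test (adjusted p = 0.102, 0.191, 0.0862, 0.139 and 0.157). In these 5 genes the value of oxamate replicate 3 stood far from the other treated parental libraries. With it the differences of FER1L4, HSF4, GIPR and NEAT1 were -0.71, -0.83, -0.87 and -0.71. Without it they were smaller, at -0.26, -0.10, -0.22 and -0.21. For GTF2IP4 the difference was 2.27 with replicate 3 and 5.22 without it.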

How the data were processed

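Poly(A)-selected RNA of MIAPaCa2 cells was sequenced in 12 libraries, 3 for each of parental and oxamate-resistant cells with vehicle or oxamate. Per the labels, reads were aligned to hg38 with Bowtie2 2.1.0, and the authors deposited RSEM 1.2.15 expected counts per gene symbol, of which 11.6% were not whole. The study's methods also describe other aligners and counters, and which was used for a given analysis was not given in the sources used here. A symbol-level count cannot separate antisense partners or near-identical copies.

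After rounding, edgeR 4.0.16 under R 4.3.3 was run on these counts (TMM scaling, filterByExpr, quasi-likelihood F test over all 12 libraries, Benjamini-Hochberg adjustment over the 14582 genes tested). Every adjusted p in the text comes from this test unless another is named. A gene was called at an adjusted p under 0.05, and in a second count also at a fold over 1.5. Of 26475 symbols, 6562 had no count in any library. Fold changes are fitted log2 values, and CPM are TMM-scaled. The members, the gene lists and the rules for naming genes were chosen with earlier results of these data known. The genes named first were the 12 with the largest rise and the 12 with the largest fall outside glycolysis, hypoxia targets and collagens, among those called over 1.5-fold with and without oxamate replicate 3, without overlap between groups and with a mean of at least 5 CPM in the higher group. Below 5 CPM the rule took 4 in each direction, for each list up to 4 members with the smallest p plus members whose role was needed, and for replicate 3 the 5 genes lost and the 5 gained with the smallest p. The step was tested on simulated counts with known changes in a small part of the genes, as many up as down. That simulation does not bear on the choice of scaling. Exon numbers and GC content came from the principal coding transcript of each gene in GENCODE. Gene positions and promoters came from RefSeq GRCh38.p14. All were matched by symbol.

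The alternatives were other scalings, filters, rounding and thresholds, DESeq2 1.42.0, limma 3.58.1 with voom, the 6 parental libraries alone, the replicate number as a block, and leaving out each parental library. Replicates with the same number did not deviate together (correlations of 0.0787, -0.0257 and -0.0256), and no pairing was used.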

Additional observations from a re-analysis of the deposited data

Results flagged for a closer look

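The response to oxamate differed between the oxamate-resistant and the parental cells, by the test of the difference itself, for 19 of the 24 genes with the largest parental change. The values are the resistant minus the parental log2 fold change, so that a negative value marks a smaller rise and a positive one a smaller fall, or a change in the opposite direction, in resistant cells. Among the genes that rose in parental cells the difference was -1.26 for RAB26, -1.13 for CLIC3, -0.97 for LOC101927770, -0.96 for UPK1A, -0.88 for MIR210HG, -0.82 for APLN, -0.78 for LINC00482 and -0.74 for SH3D21. Without oxamate replicate 3 of the parental cells it was -1.12 for RAB26, -0.48 for LINC00482 and -0.39 for SH3D21. Among the genes that fell it was 2.42 for PPP1R10, 1.73 for HPS6, 1.58 for EID2, 1.48 for CENPBD1, 1.46 for APC, 1.41 for MED18, 1.38 for PRMT6, 1.37 for ZNF689, 1.35 for ZNF202, 1.14 for C1orf226 and 1.09 for FJX1. All 19 genes were chosen for their parental values, and 44.2% of all genes tested passed the same test. Whether these differences come from the selection of the resistant line or from how the lines were grown cannot be told apart.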

How the results depend on the processing

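The counts of changed genes kept within 1.5 times of 8563 and 1368 under every alternative but one, the test against a fold of 1.5 itself, which left 376 genes, 152 higher and 224 lower after oxamate. At the adjusted p alone the other scalings, filters, tools and subsets gave 7823 (DESeq2) to 8813 genes, and leaving out each parental library gave 7706 to 8130. Past 1.5-fold they gave 1157 (a mean count of at least 25) to 1441 genes, and leaving out each library gave 1194 (without oxamate replicate 3) to 1421. With the unadjusted p of the study's methods, 1440 genes passed. With library size alone the split was 2853 higher and 5922 lower, and past 1.5-fold 614 and 827. With the replicate number as a block, 8813 genes passed (4269 higher and 4544 lower), and 1364 past 1.5-fold, although same-numbered replicates did not deviate together. Of the 1368 genes, 1041 (76.1%) kept the call without oxamate replicate 3, and 83.7% to 99.9% under the other scalings, filters, tools, fits and left-out libraries. Of the 239 genes followed through these settings none changed direction, while IFIT1 (-0.02), GAS5 (-0.03) and TUG1 (-0.0095), not called in either fit, turned with library size alone. Of the 239, 228 kept their side of the threshold without replicate 3. The difference between the lines passed for 19 of 24 genes, 17 with library size alone, 20 without replicate 3 and 20 with the replicate block. Genes at a few counts per library are limited by depth, since 3 counts were worth up to 0.0571 CPM.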

Other observations

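Smaller groups of genes changed in part, while 28.3% of all genes tested rose and 30.4% fell. Of 20 circadian clock genes 6 rose and 8 fell, and NR1D1, a repressor of the clock, rose by 0.42 on the log2 scale from 151, 150.4 and 148 to 202, 194 and 205 CPM (adjusted p = 4.13e-09). PER1, a period gene, rose by 0.70, and ARNTL2, a partner of CLOCK, fell by 0.50 (adjusted p = 6.96e-09 and 1.42e-06). Among 17 genes of glucose sensing by MondoA, 7 rose (41.2%) and 6 fell (35.3%), against 5 and 8 with library size alone. TXNIP, an inhibitor of thioredoxin and of glucose uptake, rose by 0.29 from 1359, 1373 and 1428 to 1705, 1722 and 1643 CPM, whereas ARRDC3, a related arrestin, fell by 0.73 from 30.6, 32.4 and 33.9 to 19.2, 19.9 and 19.3 CPM (adjusted p = 9.69e-08 and 2.05e-09). Of 40 genes of ion homeostasis and pH, 20 rose and 9 fell, 5 of them past 1.5-fold and all of these upward, among them CA11, a carbonic anhydrase-related protein, which rose by 0.82 (adjusted p = 2.63e-10).

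Of 36 YAP and SRF targets 12 rose (33.3%) and 19 fell (52.8%). AJUBA, a LIM protein of cell junctions, fell by 0.73, and TAGLN, transgelin, rose by 0.90 (adjusted p = 1.34e-08 and 2.19e-08). Of 77 subunits of oxidative phosphorylation 20 rose and 12 fell, and with library size alone 6 rose and 27 fell, so that no direction is given for them. The same holds for 41 genes of the TCA cycle and pyruvate entry, with 14 and 10 against 9 and 21, and for 250 solute carriers, with 81 and 67 against 55 and 90. PDK3, a kinase that inhibits pyruvate dehydrogenase, rose by 0.86 from 25.2, 25.8 and 25.9 to 47.0, 47.0 and 46.0 CPM (adjusted p = 1.18e-11). Of 29 genes of fatty acid synthesis 14 rose (48.3%) and 11 fell (37.9%), against 8 and 12 with library size alone. PLIN2, which coats lipid droplets, rose by 0.59 (adjusted p = 2.23e-10).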
